A study of Mus musculus with 42 samples.

Results

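The loci of 7 mesendoderm regulators, Eomes, Mixl1, Gsc, Foxa2, Sox17, Gata4 and Gata6, were examined for SOX2, β-catenin and LEF1 occupancy in mouse epiblast-like cells. These 7 of 21911 protein-coding genes were chosen by name, and a peak was assigned to a gene when it overlapped the annotated gene body extended by 10 kb on each side. Across 30 peak lists the windows held 1920 of 9218878 peaks, and among the 20000 best peaks of each list they held 287. The lists came from chromatin immunoprecipitation sequencing (ChIP-seq) of HM1 embryonic stem cells of 129 background, differentiated for 72 h in bFGF and LGK974, an inhibitor of WNT secretion. CHIR99021 (CHIR), which activates WNT signalling from within the cell, was added from day 2, giving caudal epiblast-like cells (CEpiLCs), or was left out (noCHIR). SOX2, β-catenin and LEF1 were each profiled with CHIR in wild-type (WT), Cdx1/2/4-/- (CdxKO) and T/Bra-/- (T/BraKO) cells, and SOX2 also in WT noCHIR cells, with 3 biological replicates in each of these 10 groups. Each genotype was carried by its own cell line, so line and genotype cannot be told apart. The peak lists hold no expression, so neither the cell type nor the loss of the targeted genes was checked against markers, and 12 input samples of the 42 in the series were not analysed here.

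Mesendoderm forms at the primitive streak, where WNT and Nodal signals act on the epiblast, and it gives rise to definitive endoderm and anterior mesoderm. Canonical WNT signalling stabilizes β-catenin, which has no DNA-binding domain and is recruited to chromatin by TCF/LEF proteins such as LEF1, while SOX2 is a high-mobility-group factor that maintains pluripotent and neural progenitors. Among the members, Eomes encodes a T-box factor and Mixl1 and Gsc encode homeodomain factors of the streak. Foxa2 encodes a forkhead factor of the node, floor plate and endoderm, Sox17 an SRY-box factor of endoderm, and Gata4 and Gata6 zinc-finger factors of endoderm and cardiac mesoderm.

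Merging the 20000 best peaks of all lists gave 89 regions at the 7 loci of 336178 regions in the genome. Most appeared in a single list, as did 58 of the 89 (65.2%), against 83.7% of all regions. At least 5 lists shared 18 member regions (20.2%), against 6.26% of all regions, and 6 (6.74%) held a peak of all 3 factors, against 2.43%. Of these 18, Eomes and Foxa2 held 5 each, Gsc 3, Mixl1 and Gata6 2 each, Gata4 1 and Sox17 none. The shares over all regions cover the whole genome, places far from genes included, so they are not matched to windows at genes. In the map of the loci the shared sites of Eomes, Mixl1 and Gsc lie on the flanks of the genes, and so do 4 of the 5 of Foxa2.

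**Figure D1:**
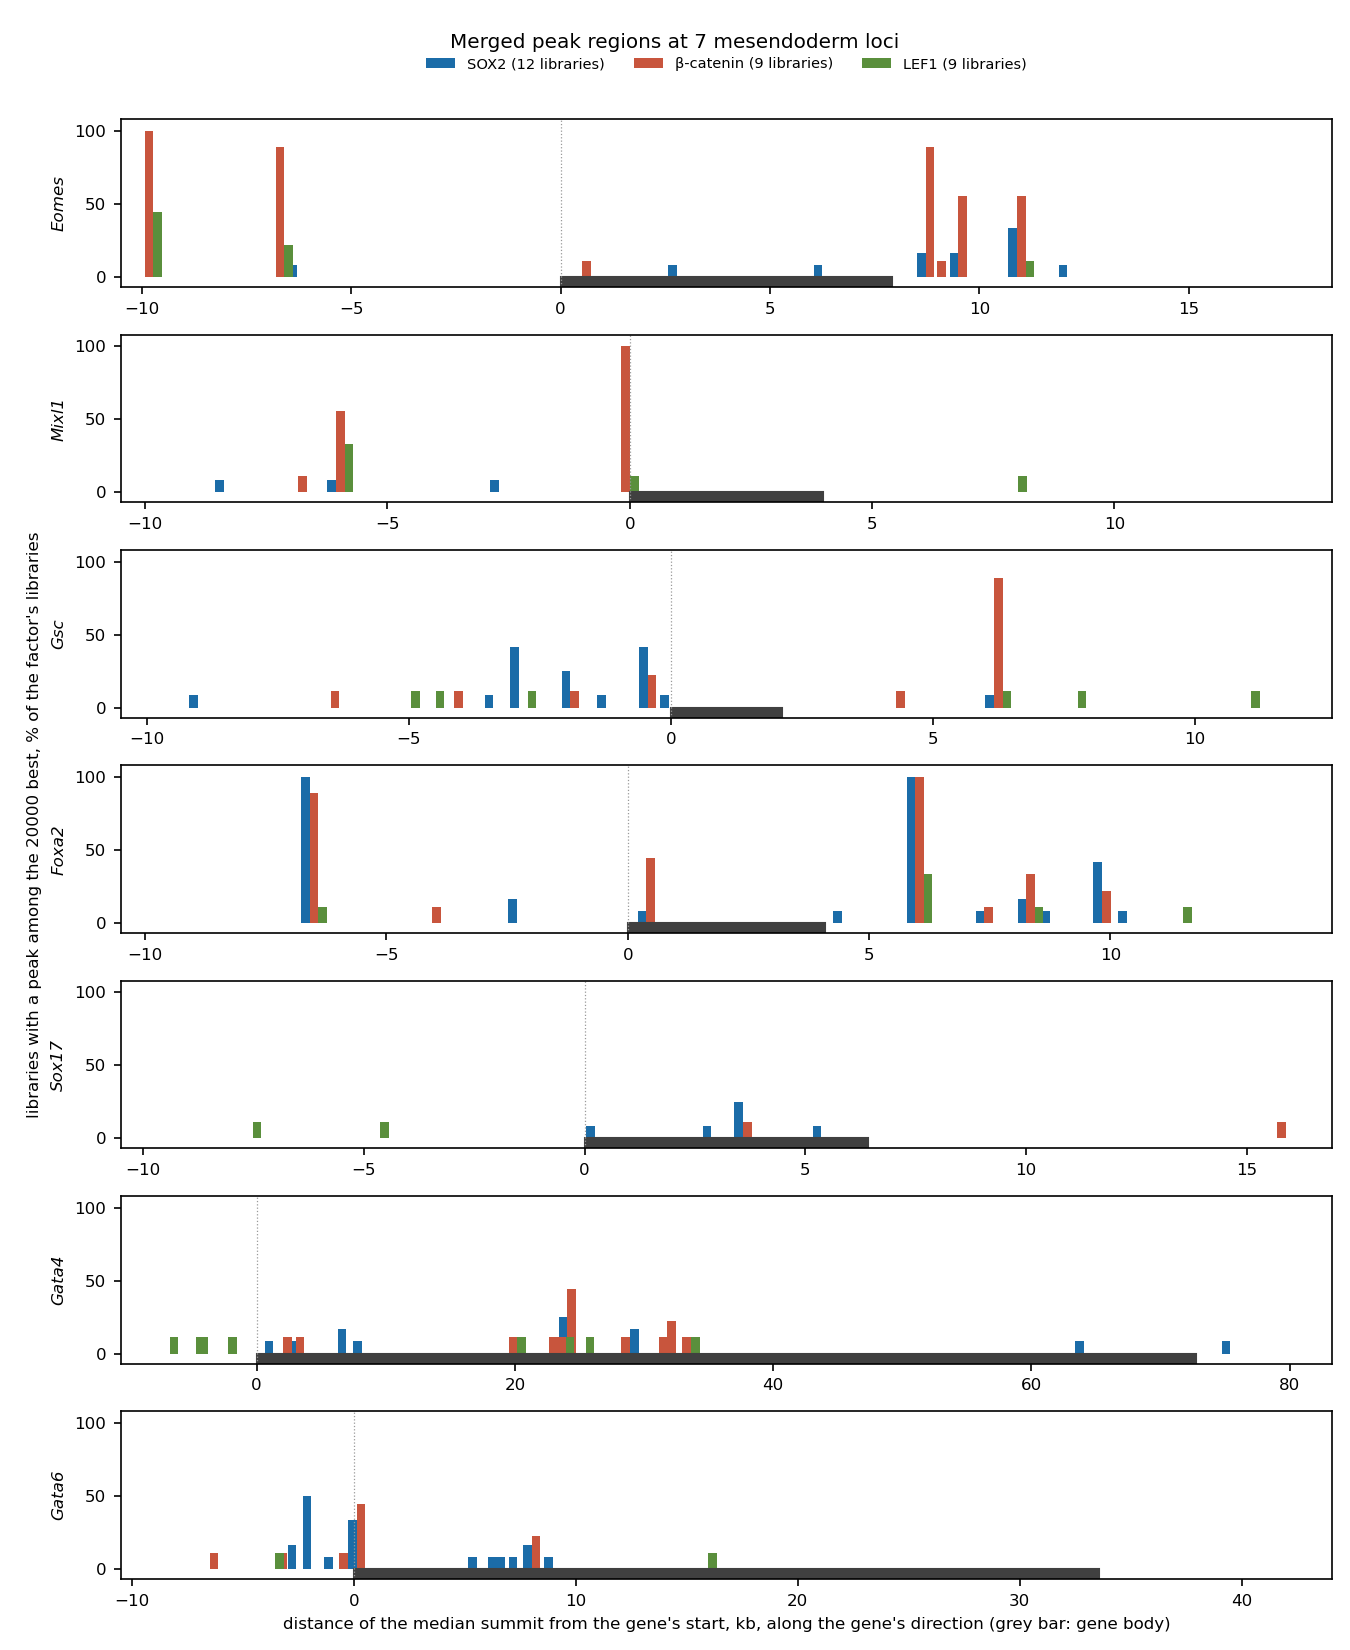
Peaks among the 20000 best of each list at the 7 loci, 1 panel per gene, with distance from the transcription start site in kb (positive along the direction of transcription) on the horizontal axis and the percent of a factor's libraries with a peak on the vertical axis, by factor (bars side by side, gene body in grey). The bars of SOX2 and β-catenin reach 100% at the Foxa2 site at 6.05 kb, which was called in 24 of 30 lists.

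The most widely called site of each locus is printed below for every member but Gata6, with the second site of Mixl1 and of Foxa2, chosen after their values were seen. They are shown as the sequences at which peaks were most often called, and at Gata4 in particular most best peaks lay elsewhere. Each stretch is centred on the median summit, is given on the plus strand of the GRCm38 (mm10) reference genome, and is cut where it would run into an exon of the gene. Sites are named by their distance from the transcription start site. Capitals mark matches to a SOX motif (CCATTGT or CCTTTGT), a TCF/LEF motif (CTTTGAA or CTTTGAT) or a CDX motif (CCATAAA or CAATAAA or TCATAAA or TAATAAA) on either strand. CCTTTGT and the TCF/LEF letters share the run CTTTG and differ in the letter that follows it. A T-box motif (AGGTG followed by TGA) was also searched. A match is a description of the letters only.
Eomes at −9.83 kb, between genes, chr9:118468281-118468481: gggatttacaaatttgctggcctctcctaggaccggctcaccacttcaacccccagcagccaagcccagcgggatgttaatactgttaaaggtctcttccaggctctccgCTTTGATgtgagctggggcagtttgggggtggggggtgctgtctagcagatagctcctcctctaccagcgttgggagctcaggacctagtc
Mixl1 at −0.082 kb, just upstream of the start site, chr1:180697035-180697216: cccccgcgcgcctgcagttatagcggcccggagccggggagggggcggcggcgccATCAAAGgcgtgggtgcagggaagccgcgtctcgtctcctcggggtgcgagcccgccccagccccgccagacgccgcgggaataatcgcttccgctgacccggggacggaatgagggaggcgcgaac
Mixl1 at −5.98 kb, between genes, chr1:180702909-180703109: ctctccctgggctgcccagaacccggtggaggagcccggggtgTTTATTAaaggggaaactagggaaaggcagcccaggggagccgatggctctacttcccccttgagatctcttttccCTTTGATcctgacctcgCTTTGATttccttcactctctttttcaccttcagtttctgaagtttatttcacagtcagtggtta
Gsc at 6.25 kb, between genes and beyond the end of Gsc, chr12:104466980-104467180: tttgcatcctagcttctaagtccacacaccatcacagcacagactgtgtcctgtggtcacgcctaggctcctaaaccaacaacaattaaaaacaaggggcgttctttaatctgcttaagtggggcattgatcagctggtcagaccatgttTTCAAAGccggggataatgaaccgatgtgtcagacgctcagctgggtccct
Foxa2 at 6.05 kb, between genes and beyond the end of Foxa2, chr2:148040823-148041023: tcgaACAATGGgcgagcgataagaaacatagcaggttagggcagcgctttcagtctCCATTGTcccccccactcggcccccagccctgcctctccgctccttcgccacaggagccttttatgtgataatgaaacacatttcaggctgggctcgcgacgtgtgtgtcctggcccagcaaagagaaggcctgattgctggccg
Foxa2 at −6.50 kb, between genes, chr2:148053371-148053571: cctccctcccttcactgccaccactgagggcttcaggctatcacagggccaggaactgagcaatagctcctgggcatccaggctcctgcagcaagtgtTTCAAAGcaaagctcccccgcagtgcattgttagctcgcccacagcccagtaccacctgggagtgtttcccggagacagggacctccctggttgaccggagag
Sox17 at 3.68 kb, intronic, chr1:4493572-4493767: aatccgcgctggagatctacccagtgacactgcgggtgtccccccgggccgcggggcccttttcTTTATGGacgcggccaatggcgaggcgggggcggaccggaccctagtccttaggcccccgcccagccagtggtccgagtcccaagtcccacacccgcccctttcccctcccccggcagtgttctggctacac
Gata4 at 24.4 kb, intronic, chr14:63247207-63247407: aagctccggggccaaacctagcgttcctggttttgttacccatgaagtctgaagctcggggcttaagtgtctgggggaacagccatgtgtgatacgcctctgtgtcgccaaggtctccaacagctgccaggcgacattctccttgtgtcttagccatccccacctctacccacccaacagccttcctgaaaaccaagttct

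Offsets from a summit, here and below, are counted along the plus strand, whereas the distances that name the sites follow the direction of transcription. The TCF/LEF match of the Eomes site started 10 bp from the median summit, and that of the Mixl1 promoter site −26 bp from it. The Mixl1 site at −5.98 kb held 2 TCF/LEF matches, at 19 and 36 bp, and 1 CDX match. The Foxa2 site at 6.05 kb held 2 SOX matches, at −96 and −44 bp, and no TCF/LEF match. The Foxa2 site at −6.50 kb held a TCF/LEF match at −2 bp and no SOX match. The Gata4 stretch held none of the 4 motifs, and the Sox17 stretch held a CDX match alone.

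Over all peaks at the members among the 20000 best, a TCF/LEF motif lay within 100 bp of the summit of 58 of 136 β-catenin peaks (42.6%), against 29.6% of all β-catenin peaks. The same held for 12 of 36 LEF1 peaks (33.3%), against 18.9%, and for 14 of 115 SOX2 peaks (12.2%), against 11.7%. Peaks of different libraries at a site share its sequence, so these shares describe few sites. SOX motifs were found at 20 of 115 SOX2 peaks (17.4%), below the 23.7% of all SOX2 peaks. CDX motifs lay at 8.70% of SOX2, 8.82% of β-catenin and 13.9% of LEF1 member peaks, against 12.3%, 12.6% and 14.3% of all peaks. No member peak of any factor held the T-box motif, which occurred in 0.935% of SOX2, 1.49% of β-catenin and 1.02% of LEF1 peaks overall. By gene, the TCF/LEF motif lay at 17 of 19 β-catenin peaks of Mixl1, 17 of 41 of Eomes and 10 of 15 of Gsc. It lay at 9 of 35 of Foxa2, 3 of 14 of Gata4, 1 of 10 of Gata6 and 1 of 2 of Sox17. In the 3 genotypes the share of β-catenin member peaks with a TCF/LEF motif was 38.1% (WT), 42.5% (CdxKO) and 46.3% (T/BraKO), beside 27.5%, 29.2% and 32.1% of all β-catenin peaks.

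The deposited lists held between 26940 and 1008922 peaks per library, and read totals were not used here, so depth is unknown. A locus was therefore described by the rank of its best peak within a list, rank 1 being the peak with the lowest q value, and a list with no peak in a window was given its length plus 1. Ranks are compared on a log10 scale, and a lower rank is called better. A longer window has more chances of a good rank, and windows ran from 22122 bp (Gsc) to 92771 bp (Gata4). Peaks among the 20000 best numbered 5 to 13 per SOX2 library, 11 to 21 per β-catenin library and 1 to 8 per LEF1 library over the 7 loci.

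Over the 9 CHIR libraries of each factor, β-catenin had the best median rank of the 3 factors at 6 of the 7 loci, and at Sox17 SOX2 had it. The order for β-catenin was Foxa2 (median rank 826), Eomes (1462), Mixl1 (3774), Gsc (4882), Gata4 (8901), Gata6 (11966) and Sox17 (28162), beside 32242 for the median protein-coding gene. Only 2.26% of genes had a better β-catenin rank than Foxa2, and 3.71% had a better one than Eomes. For SOX2 the order was Foxa2 (1537), Gsc (9669), Gata6 (12913), Gata4 (14034), Eomes (17213), Sox17 (21418) and Mixl1 (26985), with 26941 for the median gene. That median equals the value given to genes without a peak in the shortest SOX2 list, which held 26940 peaks (T/BraKO replicate 3). For LEF1 it was Eomes (1894), Foxa2 (13635), Gata4 (16966), Mixl1 (18736), Gsc (22023), Sox17 (69494) and Gata6 (74339), with 32086 for the median gene. Neighbours in each of these orders overlapped in their ranges over the 9 libraries, so no adjacent pair was separated. The SD of log10 rank was largest for LEF1 at 6 of the 7 loci, from 0.45 at Gata6 to 0.99 at Eomes, and at Sox17 it was largest for SOX2 (0.44 against 0.36 for LEF1).

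**Figure D2:**
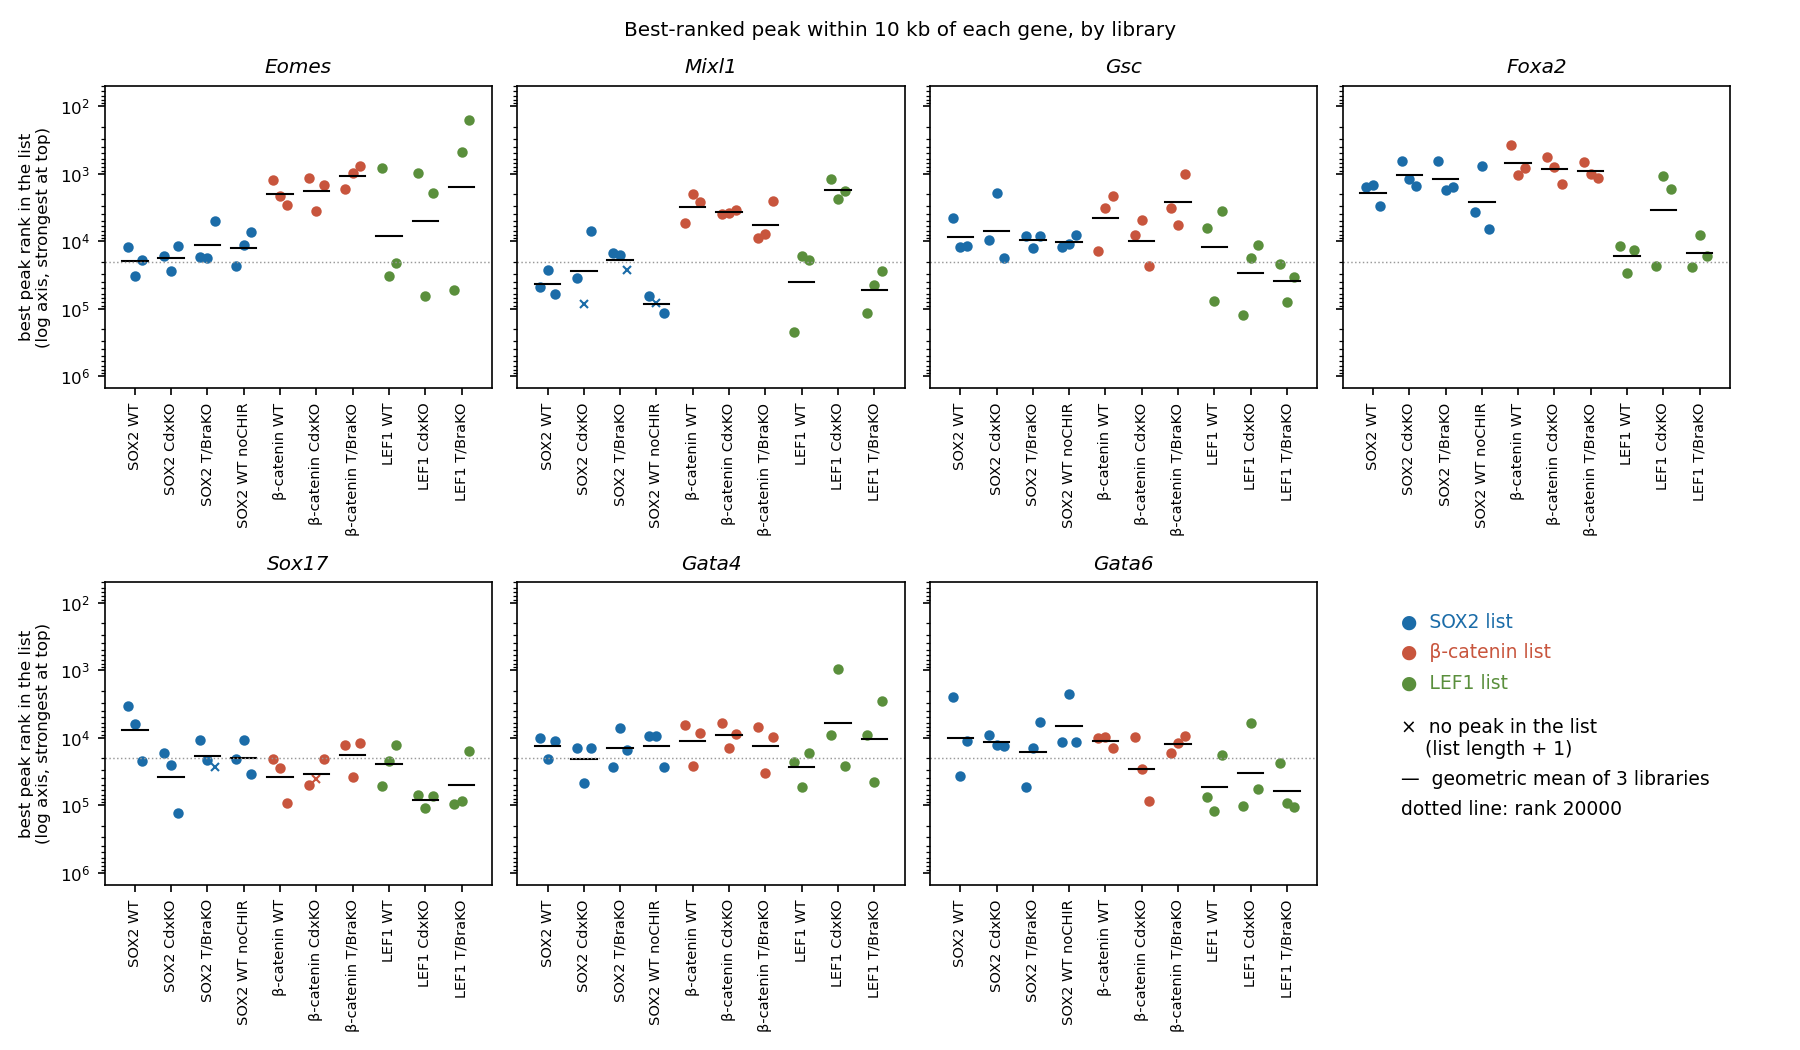
Rank of the best peak in each library (vertical log axis, best ranks at the top) for the 7 genes, by factor and group. Points are libraries, crosses are lists with no peak in the window, bars are geometric means of 3 libraries and the dotted line is rank 20000. The β-catenin points of Foxa2 and Eomes all lie at rank 3539 or better, whereas the LEF1 points of Eomes run from 161 to 65460.

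Foxa2 held the 2 sites called in the most lists of any member. At the 6.05-kb site (chr2:148039989-148041643, between genes) a peak among the 20000 best was present in 12 of 12 SOX2, 9 of 9 β-catenin and 3 of 9 LEF1 libraries. β-catenin fold enrichment over background at this site was 40.9, 24.7 and 27.5 in WT, 34.8, 27.1 and 22.4 in CdxKO and 38.3, 20.9 and 19.0 in T/BraKO. SOX2 fold enrichment was 15.8, 11.2 and 9.86 in WT, 23.8, 20.4 and 15.9 in CdxKO, 21.7, 15.9 and 11.7 in T/BraKO, and 11.8, 33.3 and 6.52 in noCHIR. The β-catenin values overlapped between the genotypes. The 3 SOX2 values of WT all lay below those of CdxKO, by 15.8 against 15.9 at the nearest, those of T/BraKO overlapped both, and the noCHIR libraries held both the highest and the lowest SOX2 value. Fold enrichment was not tested, and the share of all regions that fail to overlap in it was not counted. By best rank at Foxa2, the SOX2 libraries of WT and CdxKO overlapped. The summits of SOX2 and β-catenin lay close together, with median offsets of −3 and 22 bp from the median summit, and that of LEF1 lay at −24 bp.

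In WT the best Foxa2 ranks were 1586, 1452 and 3043 for SOX2, 374, 1052 and 826 for β-catenin, and 11695, 29374 and 13635 for LEF1. In CdxKO they were 645, 1198 and 1537 for SOX2, 572, 785 and 1415 for β-catenin, and 23010, 1062 and 1688 for LEF1. In T/BraKO they were 646, 1754 and 1553 for SOX2, 672, 993 and 1170 for β-catenin, and 24433, 8132 and 16675 for LEF1. In every CHIR library SOX2 and β-catenin placed a Foxa2 peak at rank 3043 or better, and LEF1 did so in 2 CdxKO libraries. Without CHIR the SOX2 ranks were 3689, 774 and 6586.

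The second Foxa2 site, at −6.50 kb (chr2:148052816-148053867, between genes), was called in 12 of 12 SOX2, 8 of 9 β-catenin and 1 of 9 LEF1 libraries. SOX2 fold enrichment there ran from 6.31 to 20.7, and β-catenin fold enrichment from 3.76 to 10.8. Within this site, along the plus strand, the median β-catenin summit lay −325 bp from the region's median summit. The median SOX2 summit lay 7.5 bp from the same point, so the peaks of the 2 factors were offset. Another 3 regions were each called in 5 to 7 lists, namely at 9.92 and 8.35 kb in introns of 9030622O22Rik and at 0.477 kb in the Foxa2 intron. The plot of fold enrichment by region sets these sites beside those of the other genes.

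**Figure D3:**
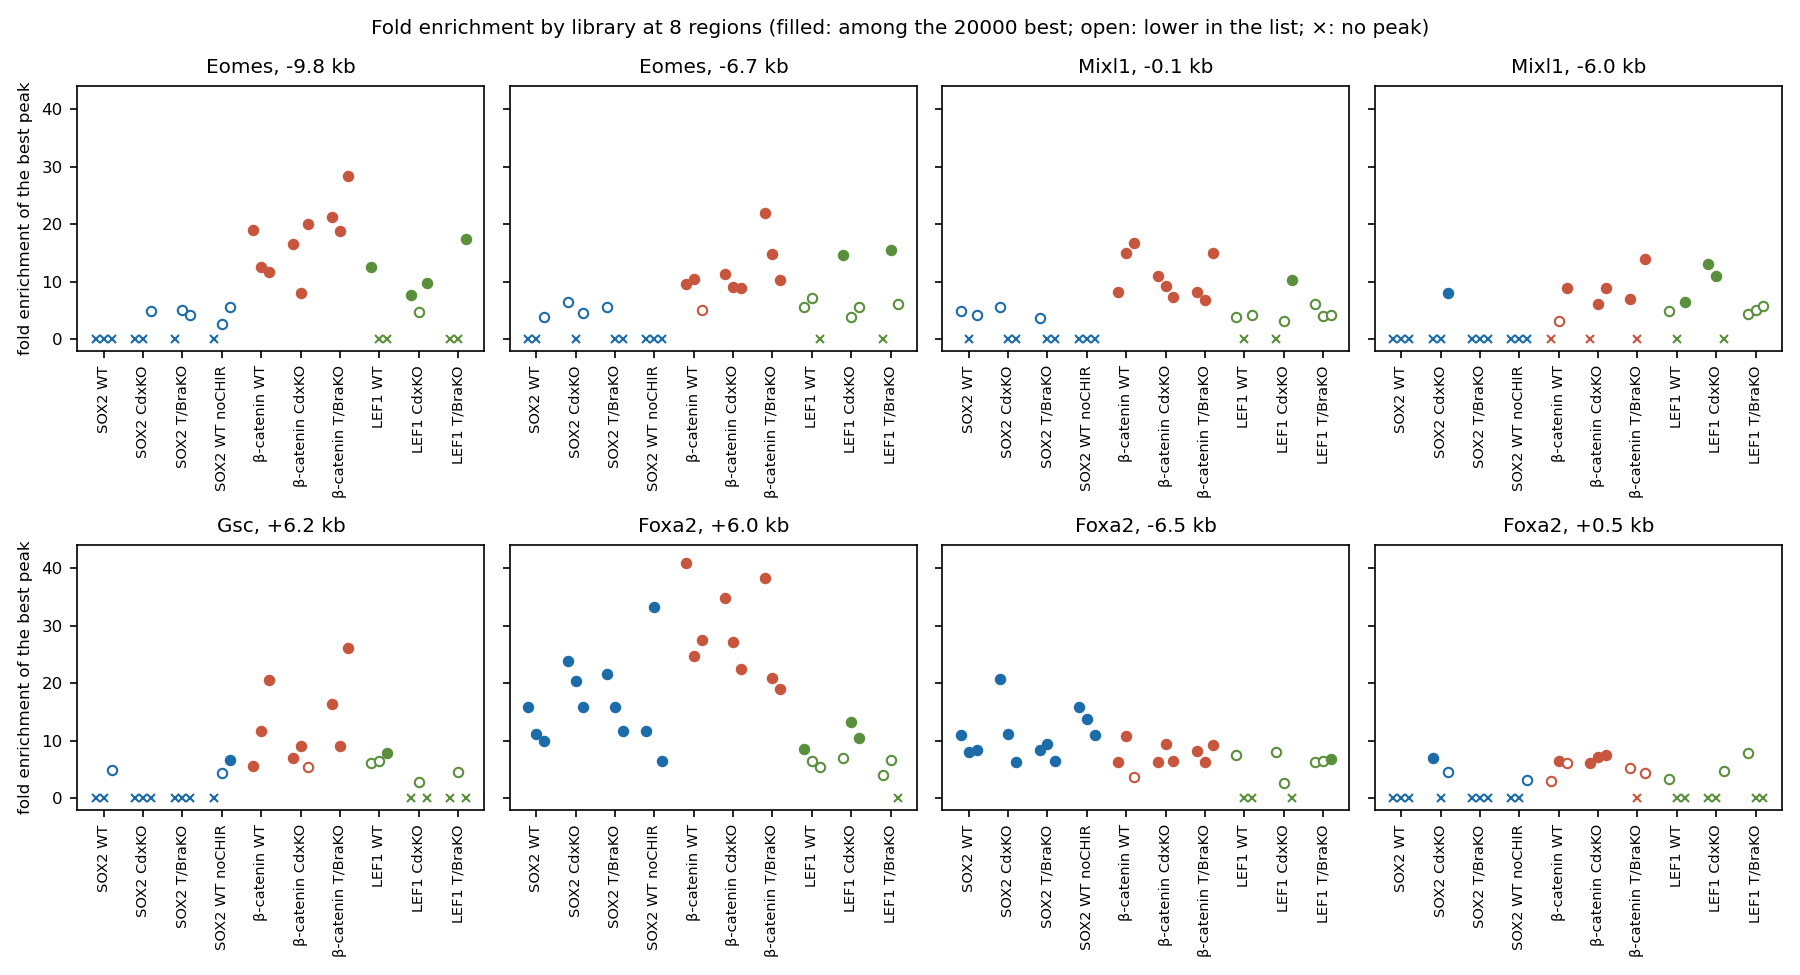
Fold enrichment at the summit (ratio over the local background, as deposited) (vertical axis) of the best peak at 8 regions of Eomes, Mixl1, Gsc and Foxa2, 1 point per library, by factor and group (horizontal axis). Filled points are among the 20000 best, open points are lower in the list and crosses at the bottom mark lists with no peak there. The β-catenin points at Foxa2 6.05 kb run from 19.0 to 40.9, and those at Eomes −9.83 kb from 7.95 to 28.4.

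At Eomes, β-catenin peaks lay on both flanks and none of the shared regions lay in the gene itself. The region at −9.83 kb (chr9:118468136-118469027) was called in 9 of 9 β-catenin, 4 of 9 LEF1 and 0 of 12 SOX2 libraries, and it overlapped the outer edge of the window. β-catenin fold enrichment there was 18.9, 12.5 and 11.7 in WT, 16.6, 7.95 and 20.0 in CdxKO and 21.2, 18.7 and 28.4 in T/BraKO. The groups overlapped. LEF1 fold enrichment was 12.6 in 1 WT library, 7.73, 4.66 and 9.70 in CdxKO and 17.5 in 1 T/BraKO library, with no LEF1 peak in the other 4 full lists. In the full lists SOX2 had a peak there in 5 of 12 libraries, with fold enrichments of 2.67 to 5.53.

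A second upstream region at −6.70 kb (chr9:118470970-118471763) was called in 8 of 9 β-catenin and 2 of 9 LEF1 libraries. Its β-catenin fold enrichment was 9.59, 10.4 and 5.05 in WT, 11.3, 9.05 and 8.86 in CdxKO and 21.9, 14.8 and 10.3 in T/BraKO. The T/BraKO values overlapped those of the other genotypes. Beyond the end of the gene, the regions at 8.82 and 9.60 kb, in introns of Gm33460, were called in 8 and 5 of 9 β-catenin libraries and in 2 SOX2 libraries each. SOX2 was present in all 12 full lists only at 11 kb among the regions called in 5 or more lists, with fold enrichments of 4.23 to 9.83.

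The best β-catenin rank at Eomes was 1236, 2122 and 2910 in WT, 1151, 3539 and 1462 in CdxKO and 1664, 966 and 779 in T/BraKO, and in 9 of 9 libraries this peak was that at −9.83 kb. The best SOX2 rank was 12234, 32758 and 18951 in WT, 16650, 28020 and 11639 in CdxKO, 17213, 17432 and 5052 in T/BraKO and 23070, 11488 and 7222 in noCHIR. No SOX2 value with CHIR was as good as the poorest β-catenin value. LEF1 ranks were 833, 32932 and 20684 in WT, 988, 65460 and 1894 in CdxKO and 52457, 473 and 161 in T/BraKO. The LEF1 libraries of every genotype therefore included both high and low ranks.

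At Mixl1 the promoter site at −0.082 kb (chr1:180696704-180697685) was called in 9 of 9 β-catenin, 1 of 9 LEF1 and 0 of 12 SOX2 libraries. Its β-catenin fold enrichment was 8.26, 15.0 and 16.8 in WT, 10.9, 9.20 and 7.31 in CdxKO and 8.14, 6.85 and 15.0 in T/BraKO, with overlapping groups. In the full lists LEF1 had a peak there in 7 of 9 libraries (fold enrichment 3.18 to 10.3) and SOX2 in 4 of 12 (3.63 to 5.66). The upstream site at −5.98 kb (chr1:180702739-180703436) was called in 5 β-catenin, 3 LEF1 and 1 SOX2 libraries. LEF1 fold enrichment at that upstream site was 13.0 and 10.98 in 2 CdxKO libraries, against 4.35 to 6.45 in the 5 WT and T/BraKO libraries with a peak, and the remaining CdxKO and WT libraries had none.

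The best β-catenin rank at Mixl1 was 5421, 1992 and 2637 in WT, 3896, 3774 and 3490 in CdxKO and 9031, 7923 and 2516 in T/BraKO. The best LEF1 rank was 219664, 16330 and 18736 in WT, 1211, 2390 and 1812 in CdxKO and 116290, 44256 and 27520 in T/BraKO. All 3 CdxKO values of LEF1 were better than every other LEF1 value at this locus. SOX2 ranks were 46958, 26985 and 60679 in WT and 63802, 81240 and 116786 in noCHIR, where the value of 81240 stands for a list with no peak in the window. They were 34400, 86069 and 7037 in CdxKO and 15145, 16155 and 26941 in T/BraKO, where 86069 and 26941 likewise stand for lists with none.

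At Gsc the factors were most frequent at different sites. β-catenin was called in 8 of 9 libraries at 6.25 kb, beyond the end of the gene (chr12:104466889-104467886), with fold enrichments of 5.51, 11.7 and 20.4 in WT, 6.99, 9.05 and 5.39 in CdxKO and 16.4, 9.05 and 26.2 in T/BraKO. SOX2 was called in 1 of 12 libraries there. SOX2 had a peak in 12 of 12 full lists at −2.82 kb (fold enrichment 4.48 to 16.5) and in 9 of 12 at −0.36 kb (3.03 to 11.5), both within exons of the overlapping gene Gm10000. Best ranks of SOX2 at Gsc were 4572, 12250 and 11907 in WT, 9669, 1924 and 17893 in CdxKO, 8282, 12583 and 8331 in T/BraKO and 12087, 11024 and 7985 in noCHIR. These 12 libraries all had a Gsc peak among the 20000 best. β-catenin ranks ran from 1019 to 23611 and LEF1 ranks from 3567 to 124220.

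Sox17 had the fewest peaks of the 7 loci, with 10 among the 20000 best over all 30 lists. Its most called region, at 3.68 kb in an intron (chr1:4493535-4493884), appeared in 3 SOX2 libraries and 1 β-catenin library, and the full lists had a peak there in 7 of 12 SOX2 and 5 of 9 β-catenin libraries. The best SOX2 ranks were 3333, 6323 and 21828 in WT, 16880, 24934 and 128285 in CdxKO, 10827, 21418 and 26941 (no peak) in T/BraKO and 20789, 10782 and 34373 in noCHIR. LEF1 ranks were 51697, 22160 and 12888 in WT, 69494, 110819 and 72166 in CdxKO and 94739, 86799 and 15743 in T/BraKO. The WT LEF1 ranks were all better than the CdxKO ranks, and those of T/BraKO overlapped both. β-catenin ranks ran from 12046 to 92395, and 1 CdxKO list had no peak.

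Gata4 and Gata6 had many sites that were each found in few lists. Of 23 Gata4 regions 15 were in a single list, and the most called, at 24.4 kb in an intron (chr14:63246898-63247679), was called in 3 SOX2, 4 β-catenin and no LEF1 libraries. Best ranks at Gata4 ran from 7198 to 46523 for SOX2, from 6059 to 33211 for β-catenin and from 958 to 53330 for LEF1. Of 15 Gata6 regions 11 were in a single list. The Gata6 region at 0.322 kb (chr18:11051883-11053006) was called in 4 SOX2 and 4 β-catenin libraries, and that at −1.73 kb (chr18:11050139-11050728) in 6 SOX2 libraries and in none of the other factors. SOX2 fold enrichment at −1.73 kb was 11.4 and 7.83 in 2 WT libraries, 4.35, 6.29 and 4.92 in CdxKO, 4.92 and 5.68 in 2 T/BraKO libraries and 8.37, 20.6 and 7.65 in noCHIR. Best SOX2 ranks at Gata6 were 2527, 36586 and 11190 in WT and 11488, 2244 and 11732 in noCHIR, and these groups overlapped.

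Whether the factors differed in their ranking of a locus was compared over the 9 CHIR libraries of each, with the factor label permuted within each genotype (8000 assignments, two-sided). The antibodies differ, so each difference is one of position in the factors' own lists and not of the amount bound. Between β-catenin and SOX2, 14.1% of all genes tested had an adjusted p at or under 0.05, with 6.42% better for β-catenin, and 2 of the 7 members passed, both better for β-catenin. At Eomes the mean log10 rank was 3.20 ± 0.22 for β-catenin and 4.20 ± 0.24 for SOX2 (SD, n = 9 each), a 10.1-fold difference in geometric mean rank (exact permutation p = 0.00025, the smallest possible, Benjamini-Hochberg adjusted over all genes to 0.00459). The difference was −1.0, −0.99 and −1.03 in WT, CdxKO and T/BraKO. At Mixl1 the means were 3.60 and 4.45, a 7.0-fold difference with the same adjusted p of 0.00459 in the exact permutation test, and the difference was −1.14, −0.87 and −0.52 in the 3 genotypes. The ranges of the 2 factors overlapped at Mixl1 and not at Eomes.

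Both of these results depended on how the locus was defined or scaled. With the gene body alone the Eomes difference was −0.12 (adjusted p = 0.692, exact permutation), since the β-catenin peak at −9.83 kb then lay outside the window. With rank as a percent of list length the Mixl1 difference was −0.56 (adjusted p = 0.131, exact permutation). The other 5 members had adjusted p values from 0.166 (Foxa2) to 0.768 (Gata6).

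At Foxa2 both β-catenin and SOX2 ranked better than LEF1. The mean log10 rank was 2.91 for β-catenin, 3.13 for SOX2 and 3.98 for LEF1. β-catenin was 11.7-fold better than LEF1 (difference −1.07, adjusted p = 0.0227, exact permutation), the only member of 7 to pass where 7.02% of all genes did and 5.98% were better for β-catenin. SOX2 was 7.06-fold better than LEF1 (difference −0.85, adjusted p = 0.0189, exact permutation), again the only member, where 9.11% of genes passed and 7.31% were better for SOX2. The differences in WT, CdxKO and T/BraKO were −1.39, −0.60 and −1.21 for β-catenin and −0.94, −0.51 and −1.09 for SOX2. With rank as a percent of list length neither passed (adjusted p = 0.263 and 0.269, exact permutation). The SOX2 difference did not pass with the gene body alone (−0.15, adjusted p = 0.672, exact permutation). Neither passed when factor labels were exchanged only between libraries of the same genotype and replicate number (adjusted p = 0.106 and 0.111, exact permutation).

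**Figure D4:**
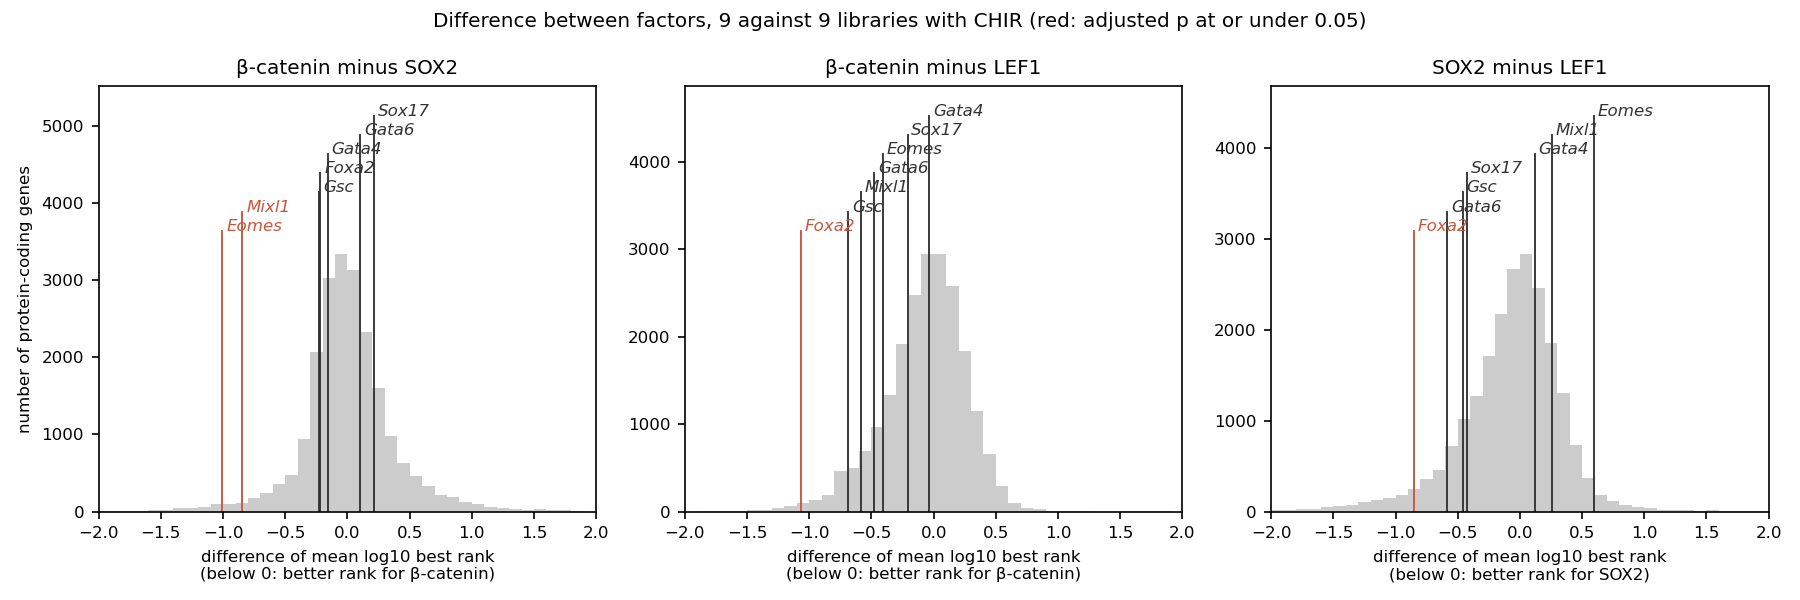
Distribution over all protein-coding genes of the difference in mean log10 best rank between 2 factors (horizontal axis, log10 units) with the number of genes on the vertical axis and the 7 members as vertical lines (red where the adjusted p was at or under 0.05), 1 panel per factor pair. The height of a line carries no value. Eomes at −1.0 and Mixl1 at −0.84 lie to the left for β-catenin against SOX2, and Foxa2 lies to the left at −1.07 and −0.85 in the panels with LEF1.

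The question of whether CHIR changed SOX2 occupancy at these loci was addressed in WT cells with 3 libraries against 3, where the exact permutation test cannot give a p below 0.1. The best rank did not overlap between groups at 1 of the 7 members, against 19.6% of all genes in either direction and 8.25% better with CHIR. That member was Mixl1, with a mean log10 rank of 4.63 ± 0.18 with CHIR and 4.93 ± 0.13 without (SD, n = 3 each, difference −0.30, exact permutation p = 0.1). All 6 Mixl1 values lay beyond the 20000 best peaks, 1 stood for a list without a peak, and the difference was 0.04 with the gene body alone. Counts of peaks among the 20000 best overlapped at all 7 loci, where 6.05% of genes did not overlap. Of 37 member regions called in either group, 2 were called in all 6 libraries, and no region was called in 3 of 3 libraries with CHIR and 0 of 3 without it, or the reverse. That pattern held for 0.146% of SOX2 regions in the CHIR direction and for 3.89% in the noCHIR direction.

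WT was then compared with each mutant in the CHIR libraries, again with 0.1 as the smallest exact p. For β-catenin no member failed to overlap between WT and CdxKO (9.36% of all genes) or between WT and T/BraKO (10.6%). For SOX2 none did so between WT and CdxKO (13.9%), and Mixl1 did between WT and T/BraKO (10.9%, and 8.04% better in T/BraKO), with 4.63 ± 0.18 in WT and 4.27 ± 0.14 in T/BraKO (SD, n = 3 each, exact permutation p = 0.1). The poorest of those T/BraKO values stood for a list of 26940 peaks with none at Mixl1, so it followed from the length of that list, and on the scale of percent of list length the difference of 0.36 became −0.28.

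For LEF1, 2 members did not overlap between WT and CdxKO, where 9.95% of all genes did not, and none between WT and T/BraKO (9.73%). Mixl1 was better in CdxKO, at 3.24 ± 0.15 against 4.61 ± 0.64 in WT (SD, n = 3 each, WT minus CdxKO 1.37, exact permutation p = 0.1, with 4.74% of genes better in CdxKO). Sox17 was better in WT, at 4.39 ± 0.30 against 4.91 ± 0.11 in CdxKO (SD, n = 3 each, WT minus CdxKO −0.53, exact permutation p = 0.1, with 5.21% of genes better in WT). Numbers of peaks among the 20000 best overlapped between WT and mutant at all 7 members for each factor, beside 3.88% and 3.35% of genes that did not for SOX2, 2.88% and 3.65% for β-catenin, and 2.78% and 2.87% for LEF1, with CdxKO given before T/BraKO.

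No member region was called in 3 of 3 WT and 0 of 3 mutant libraries, or the reverse, for any factor. The shares of all regions with that pattern were 0.059% and 0.955% for SOX2 in CdxKO, with WT-only regions given before mutant-only ones, and 0.0447% and 0.719% in T/BraKO. They were 0.506% and 0.322% for β-catenin in CdxKO and 0.608% and 0.815% in T/BraKO. For LEF1 they were 0.0346% and 0.0983% in CdxKO and 0.0947% and 0.0259% in T/BraKO. In the full lists 5 member regions had the pattern. Foxa2 held 3 of them, all in WT and in no CdxKO library, 1 for SOX2 (chr2:148038325-148038724) and 2 for β-catenin (chr2:148036190-148037204 and chr2:148039377-148039738). Of all SOX2 and β-catenin regions of the full lists in that comparison, 0.148% and 0.118% were WT-only. Among those at the members 1 of 259 and 2 of 153 were WT-only. The full lists differ in length, and those of SOX2 held 205833 to 1008922 peaks in WT and 86068 to 172423 in CdxKO. The longest β-catenin list held 469083 peaks in WT and 140907 in CdxKO. Over all SOX2 regions 2408 were WT-only and 808 CdxKO-only in the full lists, against 48 and 777 among the 20000 best. How far list length gave these patterns was not tested. Gata4 held a SOX2 region of WT absent from T/BraKO lists (chr14:63241017-63241919), 1 of 260 at the members beside 0.172% of all. Gata6 held a LEF1 region of CdxKO absent from WT lists (chr18:11072877-11073274), 1 of 350 at the members beside 0.206% of all.

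Each mutant was also set against the other 6 CHIR libraries of the same factor, an exact permutation test over 84 splits whose smallest p is 0.0119. LEF1 at Mixl1 was the only member result past 0.05 in the 6 tests. The mean log10 rank was 3.24 in CdxKO and 4.66 in the other 6 libraries (difference −1.42, exact permutation p = 0.0119), where 4.69% of all genes passed and 2.82% passed with a better rank in CdxKO. Adjusted over all genes the p was 0.992. Leaving out any 1 of the 9 libraries gave differences of −1.51 to −1.29, but with the gene body alone the difference was −0.12 (exact permutation p = 0.702) and with a 50-kb extension −0.59 (exact permutation p = 0.143). In the other 5 tests 0 members passed, against 4.15% of genes for SOX2 in CdxKO, 4.39% for SOX2 in T/BraKO, 5.98% and 6.07% for β-catenin, and 5.02% for LEF1 in T/BraKO. The nearest were Gata6 for β-catenin in CdxKO (difference 0.39, exact permutation p = 0.0595) and Foxa2 for LEF1 in CdxKO (difference −0.66, exact permutation p = 0.0595).

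The LEF1 difference at Mixl1 did not come from a single site. The best LEF1 peak was at −5.98 kb in 2 CdxKO libraries and at −0.082 kb in the third. At −0.082 kb CdxKO differed from the other 6 libraries by −0.49 (exact permutation p = 0.464), and at −5.98 kb by −1.14 (exact permutation p = 0.143).

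When the same test was applied to single regions, LEF1 at the Foxa2 site at 6.05 kb had a better rank in CdxKO, 3.66 against 4.97 in the other 6 libraries (difference −1.31, exact permutation p = 0.0238), where 1% of all LEF1 regions passed. LEF1 fold enrichment at this site was 6.91, 13.2 and 10.4 in CdxKO, 8.48, 6.49 and 5.40 in WT and 3.96 and 6.63 in 2 T/BraKO libraries, so the genotypes overlapped in enrichment. Leaving out any of 5 libraries, namely WT replicates 2 and 3, CdxKO replicates 2 and 3 and T/BraKO replicate 2, gave an exact p above 0.05. At the intronic Foxa2 site at 0.477 kb, chosen after its values were seen, β-catenin had a better rank in CdxKO, 3.97 against 4.52 (difference −0.55, exact permutation p = 0.0238), where 1.43% of β-catenin regions passed. The ranks there were 13460, 7725 and 7564 in CdxKO, 35817, 10860 and 41463 in WT and 42888 and 29327 in 2 T/BraKO libraries, with no peak in the remaining T/BraKO list. No other of the 19 regions in the tests (the 18 in 5 or more lists and that of Sox17) passed for any factor or mutant. Over all SOX2 regions 0.653% passed in CdxKO. In T/BraKO the shares of all regions were 7.59% (SOX2), 2.37% (β-catenin) and 1.16% (LEF1). These shares, with the 1% and 1.43% above, include regions found in few lists, and 83.7% of all merged regions were in a single list. They are therefore not matched to the 19 regions, and the share among regions in 5 or more lists was not counted. The shortest SOX2 list, T/BraKO replicate 3, held 26940 peaks, and a region without a peak in it was given that length plus 1. How far this gave the 7.59% of SOX2 in T/BraKO was not tested. The p values of single regions were not adjusted for the number of tests.

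The same test was read for 26 other genes of mesendoderm and endoderm. They included Nodal, Lefty1, Lefty2, Tdgf1, Gdf3, Cer1, Chrd and Dkk1 among signalling genes, and the receptors Cxcr4, Kdr and Pdgfra. The transcription factor genes included Foxh1, Hhex, Lhx1, Otx2, Foxa1, Foxa3, Sox7, Sox18, Hnf4a, Gata5, T, Mesp1, Mesp2 and Evx1. The counts were 0 for SOX2 in CdxKO and 1 in T/BraKO, 1 and 3 for β-catenin, and 0 and 0 for LEF1, beside 4.15% and 4.39% of all genes for SOX2, 5.98% and 6.07% for β-catenin and 4.69% and 5.02% for LEF1. The rank was poorer in the mutant in 4 of these 5 cases, and none passed after adjustment over all genes. Nodal, the TGFβ ligand that induces mesendoderm, had a better β-catenin rank in T/BraKO, with 227, 275 and 326 there, 792, 975 and 620 in WT and 882, 712 and 1767 in CdxKO (difference −0.52, exact permutation p = 0.0119, adjusted p = 0.500). The T/BraKO values did not overlap those of the other genotypes. The other 2 genes of that test, named here after their values were seen, had poorer β-catenin ranks in T/BraKO. They were Pdgfra, a growth factor receptor of mesoderm (difference 0.57, exact permutation p = 0.0357, adjusted p = 0.731), and Mesp1, a bHLH factor of early mesoderm (difference 0.44, exact permutation p = 0.0476, adjusted p = 0.785). Lefty1, a secreted Nodal inhibitor, had a poorer β-catenin rank in CdxKO, with 35207, 7567 and 15177 there, 3869, 4724 and 5286 in WT and 2655, 3872 and 7059 in T/BraKO (difference 0.56, exact permutation p = 0.0119, adjusted p = 0.634). Mesp1 also had a mean log10 SOX2 rank of 4.46 in T/BraKO and 3.76 in the other libraries (exact permutation p = 0.0357, adjusted p = 1).

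Lefty2 and Foxh1, named by the same rule, did not pass. SOX2 at Lefty2 in T/BraKO differed by −0.80 (exact permutation p = 0.0833) and LEF1 at Foxh1 in T/BraKO by 0.53 (exact permutation p = 0.0714). The median difference of the 7 members was −0.01 and −0.06 for SOX2 in CdxKO and T/BraKO, 0.09 and −0.16 for β-catenin, and −0.25 and 0.16 for LEF1. Over all genes the medians were 0.01, −0.06, 0.0035, −0.02, 0.02 and 0.02 in the same order, and over the 26 other genes −0.06, −0.09, 0.05, −0.03, 0.03 and −0.11.

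Across the 30 libraries the log10 best ranks of the members did not follow each other closely. The highest Pearson correlations between members were 0.56 for Foxa2 and Gata6, 0.54 for Gsc and Foxa2 and 0.54 for Gsc and Gata6, and the lowest was −0.34 for Eomes and Gata6 (n = 30 libraries, which share list length and antibody within a factor). Among protein-coding genes over 1 Mb away, the most similar to each member were Man1c1 for Eomes (r = 0.85), Olfr484 for Mixl1 (0.80), Gsc with Flrt3 (0.76), Foxa2 with Gtpbp6 (0.80), Sox17 with Neurod2 (0.76), Gata4 with C2cd2 (0.68) and Gata6 with Snai1 (0.82). Each r is the highest over 20657 to 20682 genes compared, so a high value is favoured by the selection, and none was tested.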

How the data were processed

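ChIP-seq peak lists of 30 libraries were used, grouped by the antibody, genotype and treatment in the labels (SOX2, β-catenin or LEF1, with 3 replicates in each of 10 groups). Per the paper's methods, the authors ran nf-core/chipseq: reads were trimmed with Trim Galore and aligned to mm10 with BWA, and narrow peaks were called by MACS2 at its default q, with 1 list per library. The input used as the control of each list is not given in the sources used here. Fold enrichment, as deposited, is a ratio of the pileup at the summit to the local background. Values of −log10 p and −log10 q were deposited for each peak. A deposited score, a whole number made from the q value, was not used. Summits were taken from the deposited offsets from the peak start. Read counts were not used here, so depth per library is unknown and precision is given by the spread of 3 replicates.

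Peaks of a list were put in order of −log10 q, with ties broken by −log10 p, fold enrichment and position in turn, and the 20000 best were kept for counts and regions. Gene bodies of GENCODE M21 were extended by 10 kb, and an overlap of 1 bp assigned a peak. Regions were merged from overlapping peaks, and motifs were searched within 100 bp of a summit. Two-sided exact permutation tests were run over libraries at a threshold of 0.05, with Benjamini-Hochberg adjustment over all protein-coding genes. There were 7 comparisons of 3 against 3 libraries, 6 tests of a mutant against the other 6 libraries and 3 comparisons between factors. The members and gene lists were chosen with earlier results of these data known. The comparisons between factors, the tests of named regions and the choice of regions in 5 or more lists were added after values had been seen. Text named the 7 members, for each locus the region called in most lists and those in 5 or more, of the 26 other genes the 2 with the smallest p for each factor, and for each member the gene with the highest correlation. A result for 1 gene of the list is not reported here.

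Scripts were tested on simulated data. In 200 of 21911 genes shifted by 1 log10 unit, 69.5% were called between β-catenin and SOX2 and 92.5% in CdxKO against the other genotypes for β-catenin, and with a shift of 0.5 the shares were 0% and 55.5%. Of the unchanged genes 0.0507% and 4.82% were called at a shift of 1. Values were drawn from a normal spread without the limit set by list length. An adjusted p depends on how many genes change, and in the data 3030 of 21541 genes passed between β-catenin and SOX2. The simulated shares between factors, the 0% included, therefore do not give the power of that comparison in the data. Rank by fold enrichment, rank as percent of list length, other extensions, 5000 best or full lists, left-out libraries and a replicate block were tried as alternatives. Python 3.11.15, numpy 2.4.6, pandas 2.3.3 and matplotlib 3.10.9 were used.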

Additional observations from a re-analysis of the deposited data

How the results depend on the processing

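The values below rest on ranks within lists whose depth is unknown, so a change of depth and a change of occupancy cannot be told apart. Of 165 counts of members under another setting 126 stayed within 1.5 times the reported count. In the best-rank counts of 3 against 3, the replicate block used another rule. It counted members whose differences between libraries of the same replicate number all had 1 sign. That rule is looser than non-overlap, its smallest exact permutation p is 0.25, and its share over all genes was not counted. For SOX2 with and without CHIR, members that did not overlap in best rank numbered 1. The count was 3 with rank as percent of list length, 3 with a 50-kb extension and 2 by the rule of the block. For SOX2 in CdxKO the 0 became 1 with percent rank, 1 with no extension, 3 at 50 kb and 3 with the block, and in T/BraKO the 1 became 0 with rank by fold enrichment, 2 at 50 kb and 2 with the block. For β-catenin in T/BraKO the 0 became 1 at 50 kb and 1 with the block. For LEF1 in CdxKO the 2 became 1 with no extension and 1 at 50 kb, and in T/BraKO the 0 became 3 with the block. In number of peaks 0 became 1 with full lists for SOX2 and β-catenin in CdxKO, and 1 with the 5000 best and at 50 kb for LEF1 in CdxKO. In a mutant against the other 6 libraries 0 became 1 for SOX2 in T/BraKO and β-catenin in CdxKO with no extension and for β-catenin in T/BraKO at 50 kb, and for LEF1 in CdxKO the 1 became 2 with percent rank and 0 with no extension and at 50 kb. Between factors the 2 of β-catenin and SOX2 became 1 with percent rank, the 1 of β-catenin and LEF1 became 2 with percent rank, 5 with no extension and 0 with the block, and the 1 of SOX2 and LEF1 became 0 with percent rank, 2 with no extension, 2 at 50 kb and 0 with the block. Regions in 3 of 3 against 0 of 3 libraries, 0 throughout, became with full lists 1 for SOX2 in CdxKO, 1 for SOX2 in T/BraKO, 2 for β-catenin in CdxKO and 1 for LEF1 in CdxKO, and 1 for β-catenin in CdxKO with summits within 100 bp. A summit inside a region gives the same counts by construction. The 1 named region of LEF1 in CdxKO became 0 with the block. Replicate numbers did not pair the libraries of a factor between groups (21 correlations of deviations, −0.0632 to 0.0661, 0 over 0.1). Pairing between factors was not checked. With the block the adjusted p was 0.0452 for Eomes and Mixl1 between β-catenin and SOX2 (exact permutation). It was 0.106 for β-catenin and 0.111 for SOX2 against LEF1 at Foxa2 (exact permutation). Direction reversed at Mixl1 for SOX2 with and without CHIR (0.035 with no extension, −0.30 reported) and in T/BraKO (−0.28 with percent rank, 0.36 reported). It also reversed at Foxa2 for β-catenin in CdxKO (−0.55 with no extension), and between β-catenin and LEF1 with percent rank at Sox17 (0.58) and Gata4 (0.75). The cause of these changes was not tested. Leaving out 1 library turned no member difference that had passed its test or had not overlapped, but others changed sign, as at Eomes for LEF1 in CdxKO (0.14, with a lowest value of −0.42). It moved the counts between factors to between 1 and 2, with 2 for SOX2 and LEF1 without the third SOX2 CdxKO library. The counts of a mutant against the other 6 moved between 0 and 2, as did those of non-overlapping peak numbers. A further member passed (exact permutation p = 0.0357) without 1 library in each case: Foxa2 for SOX2 in CdxKO without T/BraKO replicate 1, Mixl1 for SOX2 in T/BraKO without CdxKO replicate 3, Gsc and Gata6 for β-catenin in CdxKO without WT replicate 1 and CdxKO replicate 1, Mixl1 for β-catenin in T/BraKO without T/BraKO replicate 3, Foxa2 for LEF1 in CdxKO without CdxKO replicate 1 and Mixl1 for LEF1 in T/BraKO without WT replicate 1. The best-rank counts, where 2 libraries against 3 fail to overlap more easily by construction, moved between 0 and 3, and those of named regions between 0 and 1.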
